A study of Mus musculus with 11 samples.

Results

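The *Ifi27* family genes were followed here in mouse liver. The members are *Ifi27*, *Ifi27l2a* and *Ifi27l2b*, which are 3 of 13334 genes tested and of 13669 genes in the count table. *Ifi27l2b* was chosen by its rise between the groups described below. It had the largest log2 fold change among genes called higher that averaged 50 reads or more. The ranking also required every liver of the higher group to lie above every liver of the other. Its value was 3.36, and the next genes by this measure were *Wfdc2* at 2.59 and *Neurl1b* at 2.54. The difference in *Ifi27l2b* is therefore given as a description without a test, whereas *Ifi27* and *Ifi27l2a* entered through their names. The family and the gene lists below were still chosen with earlier results of these data known. All 3 members passed the filter for testing, a count above 10 in 5 livers or more.

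The genes encode small hydrophobic membrane proteins of the interferon-stimulated gene 12 (ISG12) family. *Ifi27* and its relatives are transcribed strongly in cells exposed to type I interferon, whose receptor passes its signal to transcription factors that enter the nucleus. The proteins have been placed at mitochondria and at the nuclear envelope, and have been linked to antiviral defence and to apoptosis.

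The study asked how inhibition of a miRNA cluster in hepatocytes, which runs from *miR-379* to *miR-410*, alters the liver, and for this purpose 11 livers of male wild-type C57BL/6J mice were sequenced. All animals had received a recombinant adeno-associated virus of serotype 8 with the liver-specific LP1 promoter, so that virus and promoter were common to both groups. In 6 livers (AAV-TuD) the virus expressed a tough decoy, an RNA that captures *miR-379* and *miR-541*. In the other 5 livers (AAV-NC) it expressed a negative control sequence. The paper lists a sequence named AAV-NC apart from a control decoy named TuD-NC, and does not describe the structure of the AAV-NC RNA. The age of these animals and the interval after the injection are not given in the labels, each library came from 1 liver, and the livers are named by the replicate numbers of the labels. Reads were taken from the 3′ end of polyadenylated RNA, which makes the count of a gene largely independent of transcript length, so that levels in CPM (counts scaled to the size of the library) can be set side by side between genes.

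Between 8148531 and 12043959 reads were counted per liver. Major urinary protein (*Mup*) transcripts took 38.6% of the reads in AAV-NC liver 7, 30.9% in AAV-TuD liver 3 and 28.4% in AAV-TuD liver 5, but 8.09% to 18.7% in the others, and CPM values were scaled by TMM factors for this reason. Hepatocyte markers were abundant in every liver. The summed level of 10 genes was 40260 to 46870 CPM with AAV-NC and 48110 to 54580 CPM with AAV-TuD. In whole liver, more cells of a type and more RNA per cell cannot be told apart.

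The members lie side by side on chromosome 12, within 23013 bases of the GRCm38 assembly. In the GENCODE annotation *Ifi27* (ENSMUSG00000064215) spans 103434211 to 103440239 on the plus strand, and has 9 transcripts. *Ifi27l2a* (ENSMUSG00000079017) follows after 1928 bases on the minus strand, from 103442167 to 103443680. *Ifi27l2b* (ENSMUSG00000021208) follows after a further 7218 bases, also on the minus strand, from 103450898 to 103457223. The miRNA cluster is on the same chromosome, and the first of its miRNAs examined here begins 6.25 Mb beyond the family.

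*Ifi27l2a* and *Ifi27l2b* were close copies, and *Ifi27* was the more distant relative. The coding sequence of *Ifi27l2a* has 90 codons before the stop, that of *Ifi27l2b* has 283 and that of *Ifi27* (transcript Ifi27-205) has 260. Local alignment gave 90.7% identity between *Ifi27l2a* and *Ifi27l2b* over 236 columns. *Ifi27* was 70.8% identical to *Ifi27l2a* over 257 columns, and 76.8% identical to *Ifi27l2b* over 164 columns. Part of the greater length of *Ifi27l2b* is a tandem duplication. Coding bases 8 to 350 and 383 to 725 of this gene, 343 bases each, were 93.3% identical to each other.

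A coding stretch of 30 bases illustrates the likeness, printed 5′ to 3′ on the strand of each gene. Capitals mark bases that differ from *Ifi27l2a*. The stretch opens the longest run shared by the coding sequences of *Ifi27l2a* and *Ifi27l2b*. A match between these genes was therefore fixed by the choice, and the differences of *Ifi27* hold for this stretch alone. The stretch was found without a change in *Ifi27l2a* (chr12:103442893-103442922, minus strand) and in both copies of *Ifi27l2b* (chr12:103456419-103456448 and chr12:103451867-103451896, minus strand), whereas *Ifi27* (chr12:103439472-103439501, plus strand) differed from them at 8 positions.
Ifi27l2a: tccatagcagccaagatgatgtctgctgca
Ifi27l2b copy 1: tccatagcagccaagatgatgtctgctgca
Ifi27l2b copy 2: tccatagcagccaagatgatgtctgctgca
Ifi27: tcTCtagcagcTaagatgatgtcCTTGTca

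Such likeness bears on how reads are assigned, and the rule that the authors used for reads matching several genes is not given in the sources used here. Within the last 500 bases of the annotated transcripts, where 3′ reads are expected, 2 of the 414 runs of 50 bases in *Ifi27l2a* also occurred in *Ifi27l2b*. None of the 976 runs of *Ifi27* and none of the 451 runs of *Ifi27l2b* in this end region occurred in another annotated gene. The reference annotation of RefSeq draws one long form of *Ifi27l2a* across *Ifi27*, from 103433873 to 103443680 on the opposite strand, and the strand setting of the counting is not given either.

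The decoy binds *miR-379* and *miR-541*, and the 3′ UTRs of the members were searched for their seed matches. The mature 5p sequences (RefSeq, GRCm38.p6) are shown with the seed, bases 2 to 8, in capitals, because these letters define the match that was searched.
miR-379-5p: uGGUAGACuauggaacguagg
miR-541-5p: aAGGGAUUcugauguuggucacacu

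The corresponding sites in a transcript, GTCTACC and AATCCCT, were found in 4.79% and 8.09% of 21028 annotated mouse 3′ UTRs, searched on the transcript strand. Neither was present in the 3′ UTRs of *Ifi27* (68 bases), *Ifi27l2a* (143 bases) or *Ifi27l2b* (177 bases). The same held for the 3p arms of both miRNAs and for both arms of *miR-134*, *miR-382*, *miR-409* and *miR-410*, which gives 0 matches for 12 mature sequences. These letters are therefore not in these short windows, and coding sequences were not searched. The shares of all 3′ UTRs were not matched for length, so they cannot say how often windows this short lack a match.

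*Ifi27* was by far the most abundant member in both groups. Its level in the AAV-NC livers 1, 2, 6, 7 and 8 was 47.4, 54.5, 46.8, 58.2 and 50 CPM. In the AAV-TuD livers 3, 4, 5, 9, 10 and 11 it was 67.3, 87.7, 104.6, 62.9, 114.7 and 79.3 CPM. The groups did not overlap, although liver 9 of the AAV-TuD group lay close to the highest control, and the AAV-TuD livers were more spread out (coefficient of variation 23.8% against 9.49%). The mean rose from 51.4 ± 4.88 CPM (SD, n = 5) to 86.1 ± 20.5 CPM (SD, n = 6). This was a log2 fold change of 0.74 ± 0.14 (SE), with an adjusted p of 0.00384 in the quasi-likelihood test of edgeR and p = 0.00433 in a two-sided exact permutation test over the livers, the smallest value that its 462 splits allow.

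*Ifi27l2a* was present at a much lower level. It had 3.10, 2.52, 2.77, 2.003 and 1.75 CPM in the AAV-NC livers 1, 2, 6, 7 and 8, from 16 to 26 reads per liver. In the AAV-TuD livers 3, 4, 5, 9, 10 and 11 it had 4.23, 6.29, 4.78, 6.15, 10.1 and 3.68 CPM, from 43 to 117 reads. Again every AAV-TuD liver was above every control, and liver 10 stood above the other AAV-TuD livers as it did for *Ifi27*. The mean rose from 2.43 ± 0.552 CPM (SD, n = 5) to 5.87 ± 2.31 CPM (SD, n = 6), a log2 fold change of 1.28 ± 0.26 (SE), with an adjusted p of 0.00656 by edgeR and p = 0.00433 by the exact permutation test. Whether this change was larger than that of *Ifi27* was not tested.

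*Ifi27l2b*, the member selected on its rise, was the rarest of the family in the control livers. In the AAV-NC livers 1, 2, 6, 7 and 8 it had 0.597, 0.629, 1.33, 1.25 and 1.27 CPM. These levels rested on 5, 5, 12, 10 and 13 reads, and the exact Poisson intervals of the lowest and the highest of these counts, 1.62 to 11.7 and 6.92 to 22.2 reads, overlapped. In the AAV-TuD livers 3, 4, 5, 9, 10 and 11 it had 5.54, 12.1, 9.56, 14.4, 14.9 and 7.27 CPM, from 59, 133, 90, 178, 173 and 85 reads. The lowest AAV-TuD liver was well above the highest control, but a separation of the groups was a condition of the selection. The means were 1.01 ± 0.367 CPM (SD, n = 5) and 10.6 ± 3.83 CPM (SD, n = 6), the log2 fold change 3.36 ± 0.32 (SE), a fold of 10.3, which placed the gene at rank 7 of all tested genes by log2 fold change, low counts included.

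Across the transcriptome, 966 genes or 7.24% of those tested were higher with AAV-TuD at an adjusted p under 0.05, 4.33% were lower, and in 4.11% all AAV-TuD livers were above all AAV-NC livers. The named relatives *Ifi27* and *Ifi27l2a* belonged to the first set and to the last. *Ifi27l2b* is in both by the conditions of its selection, so its place there is not a result. The shares of called genes are those of edgeR after adjustment. No share of all genes was computed at an unadjusted p or by DESeq2.

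**Figure D1:**
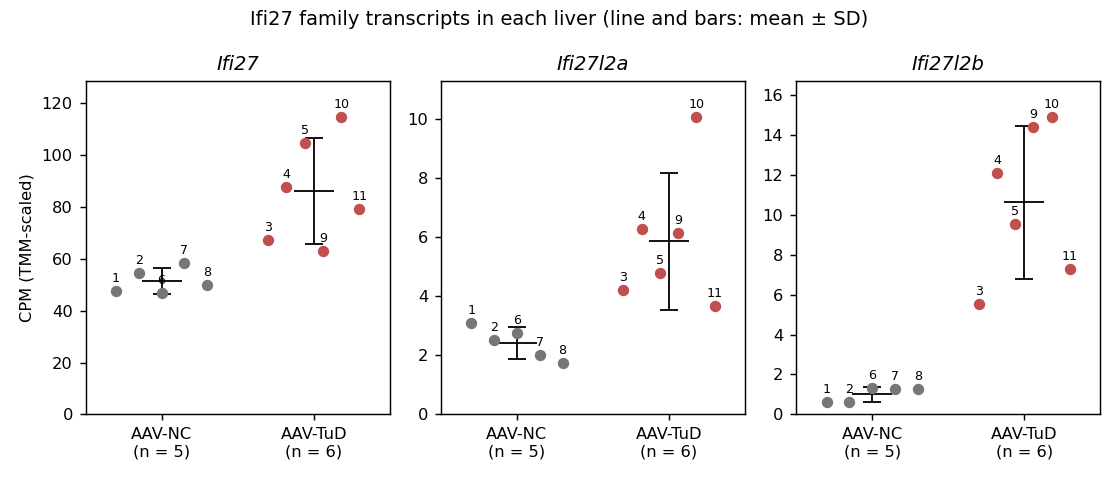
TMM-scaled CPM (linear axes from 0, a separate scale for each gene) of the *Ifi27* family members in each liver, with grey points for AAV-NC, red points for AAV-TuD, replicate numbers beside the points, and the mean ± SD in black. In each panel the 6 AAV-TuD livers sit above the 5 AAV-NC livers, and for *Ifi27l2b* the highest control is at 1.33 and the lowest AAV-TuD liver at 5.54 CPM. For *Ifi27l2b* this separation was a condition of its selection.

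The members did not rank the AAV-TuD livers in the same order. Liver 10 was the highest for all 3 genes. Liver 9 was the second highest for *Ifi27l2b* at 14.4 CPM and the lowest for *Ifi27* at 62.9 CPM, whereas liver 5 was second for *Ifi27* but below livers 4, 9 and 10 for both other members. After the mean of each group had been subtracted, Pearson's r of log2 CPM over the 11 livers was 0.276 between *Ifi27* and *Ifi27l2b*, 0.407 between *Ifi27l2a* and *Ifi27l2b*, and 0.328 between *Ifi27* and *Ifi27l2a*. These correlations are descriptions, the points share library scaling, and the counts of the rarer members were low.

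The composition of the family transcripts differed between the groups. *Ifi27* held 92.0% to 94.7% of the reads of the 3 genes in the AAV-NC livers and 75.4% to 88.0% in the AAV-TuD livers. The share of *Ifi27l2b* was 1.09% to 2.61% in AAV-NC livers and 7.19% to 17.3% in AAV-TuD livers, with the highest value in liver 9. The share of *Ifi27l2a* overlapped between the groups, at 3.26% to 6.08% and 4.02% to 7.37%. *Ifi27l2a* thus had more reads than *Ifi27l2b* in each of the AAV-NC livers and fewer in each of the AAV-TuD livers. In some livers this order was within counting error. Examples are AAV-NC liver 8, with 18 and 13 reads, and AAV-TuD liver 3, with 45 and 59 reads. The summed level of the family was 50.9 to 61.5 CPM (median 53.0) with AAV-NC and 77.1 to 139.7 CPM (median 98.2) with AAV-TuD. The shares include the gene chosen for its rise and were not tested.

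**Figure D2:**
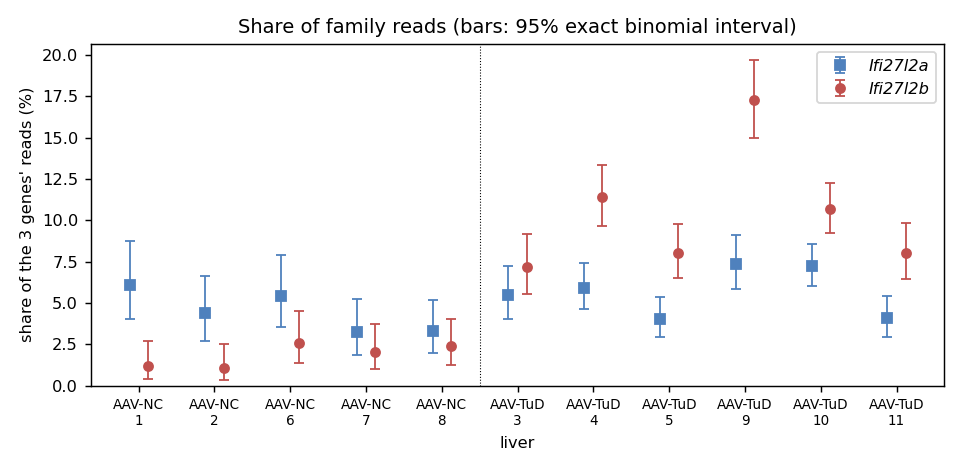
Share of the reads of the 3 family genes that fell on *Ifi27l2a* (blue squares) and *Ifi27l2b* (red circles) in each liver, in percent, with exact (Clopper-Pearson) 95% binomial intervals that cover counting error only. *Ifi27l2b* lies below *Ifi27l2a* in the AAV-NC livers and above it in the AAV-TuD livers, where it reaches 17.3%. The intervals of the genes overlap in some livers, such as AAV-NC liver 8 and AAV-TuD liver 3.

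The *Mup* share of the libraries varied along with the level of *Ifi27l2b* inside the AAV-TuD group. The livers with the lower values, 3, 11 and 5, had 30.9%, 15.3% and 28.4% of reads on *Mup* genes, and the livers with the higher values, 4, 9 and 10, had 8.09%, 10.01% and 10.2%. Without AAV-NC liver 7 and AAV-TuD livers 3 and 5, an omission decided after the data had been seen, the log2 fold change was 0.80 for *Ifi27* (edgeR, adjusted p = 0.0056), 1.38 for *Ifi27l2a* (edgeR, adjusted p = 0.0115) and 3.63 for *Ifi27l2b*.

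The genes next to the family were examined in the same test. Of 18 annotated genes within 250 kb, 7 passed the filter on low counts, with 0 calls in either direction by edgeR, by DESeq2 or at an unadjusted p under 0.05. With 7.24% of all genes higher and 4.33% lower by edgeR, its 0 of 7 is near the share of all genes. *Ddx24*, which encodes an RNA helicase and begins 8.38 kb before *Ifi27*, was well counted, at 63.2 ± 3.32 CPM (SD, n = 5) with AAV-NC and 67.9 ± 4.07 CPM (SD, n = 6) with AAV-TuD. This gave a log2 fold change of 0.10 ± 0.07 (SE), with an adjusted p of 0.361 by edgeR. On the other side the nearest tested gene was *Ppp4r4*, a regulatory subunit of protein phosphatase, with a log2 fold change of -0.03 ± 0.17 (SE). *Serpina10* and *Serpina6*, the latter encoding corticosteroid-binding globulin, had values of -0.09 ± 0.10 and -0.25 ± 0.12 (SE). The remaining neighbours *Asb2*, *Otub2* and *Gm47260* were below 4 CPM on average, so that only large differences would have been detectable.

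**Figure D3:**
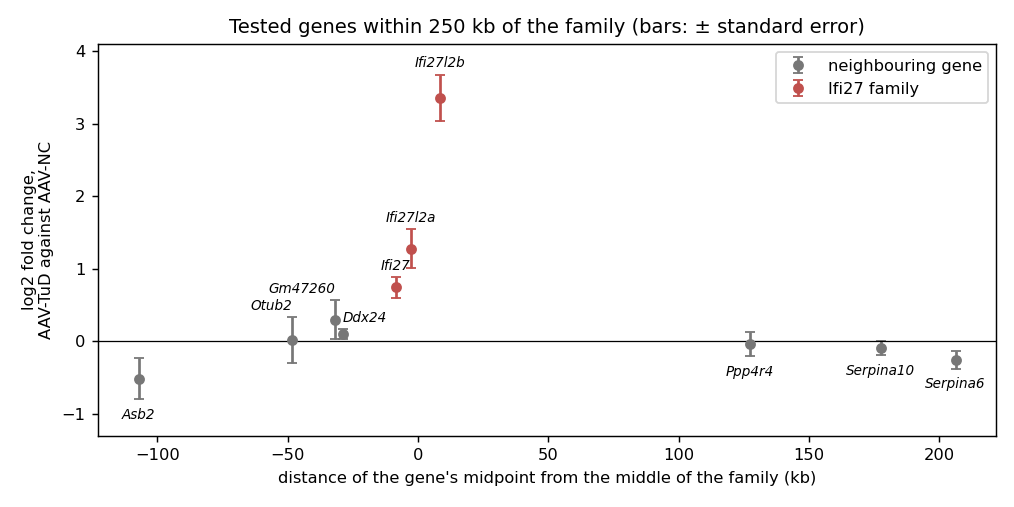
Log2 fold change of AAV-TuD against AAV-NC (± SE) for the family (red) and for the 7 tested neighbours (grey), placed by the distance in kb of the middle of each gene from the middle of the family. The 3 members have values of 0.74, 1.28 and 3.36, and the neighbours lie between -0.51 and 0.30.

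Part of the other interferon-stimulated genes rose as well. A list of 62 such genes without the *Ifi27* family had 55 members among the tested genes, of which 17 rose. This is 30.9% of them, beside 7.24% of all tested genes. Some, such as *Oas1a* and *Oas1g*, passed the filter only with the AAV-TuD livers. The count therefore holds for the tested genes and not for the whole list. By edgeR 0 fell. At an unadjusted p under 0.05 there were 29 higher and 1 lower, with 19 and 0 by DESeq2. The 7.24% does not apply to these last counts, here or for the lists below, as no share of all genes was computed for them. The median log2 fold change of the list was 0.42, beside -0.002 for all tested genes, and 49 of the 55 values were above 0. The summed level of the list was 1377 to 1608 CPM in AAV-NC livers and 1580 to 2028 CPM in AAV-TuD livers, with the lowest AAV-TuD value in liver 3 and the highest in liver 10. Abundant genes weigh most in this sum. *Ifitm3* averaged 538 CPM with AAV-NC and 530.4 CPM with AAV-TuD, and *Ly6e* 112.4 and 254.5 CPM. The count of genes that rose depended on single livers. It was 9 without AAV-NC liver 7 or without AAV-TuD liver 10, 10 without AAV-TuD liver 4 or AAV-NC liver 6, 11 without AAV-NC liver 8 or AAV-TuD liver 11, and 21 without AAV-TuD liver 3.

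The genes of this list with the smallest p were *Ly6e*, *Oas1a* and *Oas1g*. *Ly6e*, an interferon-induced protein anchored at the cell surface, rose from 112.4 ± 9.71 CPM (SD, n = 5) to 254.5 ± 53.9 CPM (SD, n = 6), a log2 fold change of 1.18 ± 0.13 (SE), with an adjusted p of 6.64e-05 by edgeR. *Oas1a* and *Oas1g*, oligoadenylate synthetases that recognise double-stranded RNA, rose by 1.42 ± 0.25 and 1.58 ± 0.28 on the log2 scale (SE) from about 1 CPM, with adjusted p of 0.00296 and 0.00305 by edgeR. Their lowest AAV-NC levels were 0.881 and 0.629 CPM, too few reads for the controls alone to meet the filter. Both genes were thus tested through the AAV-TuD livers, where they were high. Other widely used marker genes of an interferon response, named here after their values had been seen, did not pass the test. *Isg15*, a ubiquitin-like modifier, had a log2 fold change of 0.32 ± 0.16 (SE, adjusted p = 0.223 by edgeR), *Ifit1* 0.59 ± 0.23 (adjusted p = 0.114 by edgeR) and *Mx2* -0.01 ± 0.27 (adjusted p = 0.992 by edgeR). By log2 fold change *Oas1a* and *Oas1g* lay above *Ifi27l2a*, and *Ly6e* between *Ifi27l2a* and *Ifi27*, while the place of *Ifi27l2b* above the list follows from its selection.

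**Figure D4:**
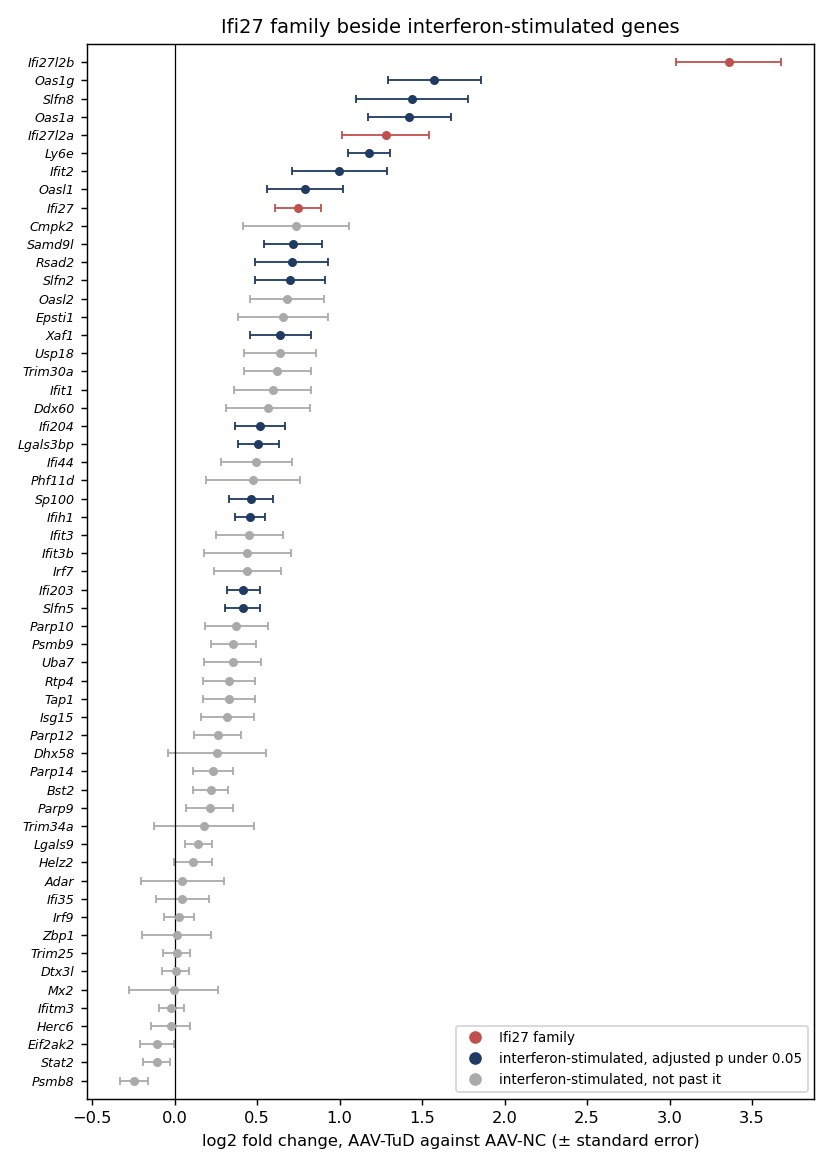
Log2 fold change of AAV-TuD against AAV-NC (± SE) for the *Ifi27* family (red) and the tested interferon-stimulated genes (1 gene of the list is not drawn), in dark blue where the adjusted p of edgeR was under 0.05 and in grey where it was not. *Ifi27l2b*, selected on this value, is at the top at 3.36, *Ifi27l2a* and *Ifi27* lie among the upper genes at 1.28 and 0.74, and most of the list lies between 0 and 0.8.

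Upstream of these genes the differences were few. None of 18 interferon ligand genes was among the tested genes, so that ligands could not be compared at this depth. Of 24 tested genes for interferon receptors and signalling proteins 2 rose, a share of 8.33% beside the 7.24% of all genes, and 0 fell by edgeR. At an unadjusted p under 0.05 these counts were 8 and 0, and by DESeq2 2 and 0. Among those that rose was *Irf8*, a transcription factor of myeloid cells, at 0.65 ± 0.19 (SE, adjusted p = 0.0326 by edgeR), a call lost in 6 of the 11 omissions of a single liver (edgeR, adjusted p up to 0.079). The count depended on single livers and was 0 without AAV-NC livers 1, 6 or 7 or AAV-TuD livers 4 or 10.

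Among 19 tested genes that sense foreign nucleic acids or relay this signal, 3 rose and 1 fell, beside 7.24% and 4.33% of all genes. The genes that rose also stood in the interferon-stimulated list. They were *Ifih1*, *Ifi204* and *Oas1a*, the last of which passed the filter only with the AAV-TuD livers. *Ifih1*, which encodes the RNA sensor MDA5, had 25.1 ± 3.06 CPM (SD, n = 5) and 34.5 ± 2.58 CPM (SD, n = 6), a log2 fold change of 0.46 ± 0.09 (SE, adjusted p = 0.00519 by edgeR). *Ifi204*, a DNA sensor, was at 0.52 ± 0.15 (SE, adjusted p = 0.0394 by edgeR), a call lost in 8 of the 11 omissions of a single liver (edgeR, adjusted p up to 0.0966). *Mavs*, the mitochondrial adaptor of the RNA sensors, fell by 0.33 ± 0.10 on the log2 scale (SE, adjusted p = 0.0461 by edgeR), a call lost in 9 of the 11 omissions of a single liver (all but those of AAV-NC liver 1 and AAV-TuD liver 3), with library size alone and without the livers richest in *Mup*.

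Interferon-gamma-inducible GTPases, which act against intracellular pathogens, had a median log2 fold change of 0.43 over 17 tested genes. By edgeR 3 of them rose, 17.6% beside 7.24% of all genes, and 0 fell beside 4.33%, against 8 and 0 at an unadjusted p under 0.05, and 5 and 0 by DESeq2. *Gbp7*, *Iigp1* and *Gvin1* had log2 fold changes of 0.55 ± 0.13, 0.46 ± 0.12 and 0.33 ± 0.10 (SE), with adjusted p of 0.0134, 0.0252 and 0.0398 by edgeR. The call of *Gvin1* was lost in 8 of the 11 omissions of a single liver (edgeR, adjusted p up to 0.100) and without the livers richest in *Mup* (0.0757), and that of *Iigp1* in 3 omissions (up to 0.0606). The count was 1 without AAV-TuD liver 4 or without AAV-NC liver 7, and 5 without AAV-TuD liver 3. Genes for proteins that have been reported to act with IFI27, such as *Skp2*, *Xpo1* and *Hspa5*, gave 5 tested genes. By edgeR 0 rose and 0 fell, beside 7.24% and 4.33% of all genes. DESeq2 gave the same counts, and 1 was higher and 0 lower at an unadjusted p under 0.05.

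Markers of several non-parenchymal cell types were also higher with AAV-TuD, and their counts stand beside 7.24% of all genes that rose and 4.33% that fell. Of 14 listed Kupffer cell markers 13 were tested and 8 rose, with a median log2 fold change of 0.84. *Ctss*, a lysosomal protease of macrophages, went from 27.2 ± 1.79 CPM (SD, n = 5) to 53.2 ± 13.8 CPM (SD, n = 6). *Slc40a1*, the most abundant of the list, had 54.7 ± 11.2 and 56.2 ± 9.43 CPM (SD, adjusted p = 0.899 by edgeR). Of 14 listed monocyte and macrophage markers 9 were tested and 8 rose. Their summed level was 33.1 to 47.8 CPM with AAV-NC and 54.3 to 129.8 CPM with AAV-TuD. Of 14 listed cholangiocyte markers 10 were tested and 9 rose, and of 16 stellate cell markers 14 were tested and 11 rose. Their summed levels were 43.0 to 71.9 against 80.7 to 126.5 CPM and 226.2 to 290.3 against 392.5 to 538.6 CPM. Some markers, such as *Gpnmb* and *Anxa13* at 0.0584 and 0.284 CPM on average with AAV-NC, passed the filter through AAV-TuD livers alone. The counts therefore hold for the tested genes and not for the whole lists. Of the sinusoidal endothelial markers 1 of 15 rose, which is 6.67% and near the share of all genes, and only 2 of 18 lymphocyte and plasmacytoid dendritic cell markers were high enough to be tested, neither of which was called. Of the hepatocyte markers 1 of 10 rose (*Cyp3a11*) and 3 fell (*Apob*, *Hnf4a* and *Asgr1*), which were not called when library size alone was used for scaling. Their summed level was higher in every AAV-TuD liver than in any control, whereas their mean log2 CPM was below all controls in 5 of the 6 AAV-TuD livers. *Alb*, the most abundant, had a log2 fold change of 0.41 ± 0.15 (SE, adjusted p = 0.0805 by edgeR). The summed level of the Kupffer cell list was 204.6 to 277.0 CPM with AAV-NC and 228.5 to 550.4 CPM with AAV-TuD, and liver 10 had the highest and liver 3 the lowest AAV-TuD value. The part of these cell types in the levels of the *Ifi27* family was not tested.

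The genes whose pattern was most like that of *Ifi27l2b* were sought among 8371 other genes that averaged 50 reads or more. Over all 11 livers the highest Pearson's r of log2 CPM belonged to *Arl6ip1*, a protein that shapes the endoplasmic reticulum (0.980), *Sirpa*, an inhibitory receptor of myeloid cells (0.976), *Rnf14*, a ubiquitin ligase (0.971), *Itih5*, a hyaluronan-binding matrix protein (0.969), and *Sumo3*, a ubiquitin-like modifier (0.961). This measure includes the difference between the groups, the median over all genes was -0.0976 and the 95th percentile 0.775. All 5 genes rose, *Itih5* from 13.6 ± 2.75 to 35.5 ± 5.12 CPM and *Sirpa* from 4.69 ± 0.488 to 10.7 ± 2.48 CPM (SD, n = 5 and n = 6). *Ifi27* was at rank 246 with r = 0.833, and *Ifi27l2a*, which was under the read minimum of this ranking, had r = 0.860.

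After the group means had been subtracted a different set led. The genes were *Mcee*, methylmalonyl-CoA epimerase (0.923), *Serpinb6a*, an intracellular protease inhibitor (0.903), *Clu*, the secreted chaperone clusterin (0.892), *Csf2ra*, a receptor subunit for the cytokine GM-CSF (0.890), and *Arhgap23* (0.890). Here the median over all genes was 0.0109, the 95th percentile 0.616, and *Ifi27* was at rank 2194. *Serpinb6a* and *Csf2ra* were among the genes that rose, with log2 fold changes of 0.95 ± 0.18 and 0.92 ± 0.28 (SE), although the call of *Csf2ra* was lost in 8 of the 11 omissions of a single liver, while *Mcee* had 47.2 ± 4.95 and 48.5 ± 4.26 CPM (SD, n = 5 and n = 6). Neither list held steady, as leaving out single livers kept 2 to 5 of the first 5 genes and 0 to 4 of the second.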

How the data were processed

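The authors prepared QuantSeq 3′ mRNA libraries, used BBDuk for trimming, STAR (version 2.5.3a in the submitters' processing notes) for alignment to GRCm38 and Rsubread for counting. The deposited values are raw counts per gene. The annotation and strand setting of the counting are not given in the sources used here.

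The filter kept 13334 genes with over 10 reads in 5 livers or more, which the livers of either group alone could meet. They were tested by quasi-likelihood in edgeR 4.0.16 (R 4.3.3) with TMM scaling, a group-only model and Benjamini-Hochberg adjustment over all tested genes at 0.05. The script was tested on simulated data. Log2 CPM used a prior count of 2. Depth was 8148531 to 12043959 reads per liver, and a gene at 1 CPM therefore had about 10 reads. Intervals and read counts cover counting error only. Replicate libraries differed by more than sampling noise. Single values were compared by exact permutation over 462 splits.

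The members and gene lists were chosen with earlier results of these data known. Genes named are the members, tested neighbours within 250 kb, the 5 genes most like *Ifi27l2b* by each measure, the 3 called genes with the smallest p per list and direction, and the 2 most abundant markers per cell type. Not all of these are printed, and some are not reported here. Coordinates and transcripts come from GENCODE M21. Alternatives were DESeq2 1.42.0, other scalings and filters, *Mup* genes left out and each liver left out.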

Additional observations from a re-analysis of the deposited data

Results flagged for a closer look

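A liver was singled out where its gap to the nearest liver of its group took an unusually large part of the group's range, as happens by chance in about 1 in 20 groups. Of 150 groups of values examined 13 were singled out, none of them for a level or read share of *Ifi27*, *Ifi27l2a* or *Ifi27l2b*.

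The share of reads on *Mup* genes was high in AAV-NC liver 7, at 38.6% with the next control at 18.7%, and the gap was 0.804 of the range. Among the marker lists, the mean log2 CPM was lowest for cholangiocyte markers in AAV-TuD liver 5 (gap 0.628 of the range) and for lymphocyte and plasmacytoid dendritic cell markers in AAV-TuD liver 4 (0.68). *Spp1*, a secreted matrix protein of bile duct cells, was also lowest in AAV-TuD liver 5, at 11.7 CPM with the next at 22.8 (0.664). *Mavs* was lowest in AAV-TuD liver 11, at 24.8 CPM with the next at 31.6 (0.664). *Gpnmb* was counted in AAV-NC liver 8 alone among the controls, at 0.292 CPM (gap 1).

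Among hepatocyte markers, *Cyp3a11* was highest in AAV-NC liver 1 (0.825), *Apob* lowest in AAV-NC liver 6 (0.743) and *Alb* highest in AAV-TuD liver 9 (0.677). Among the neighbours of the family, *Gm47260* was lowest in AAV-NC liver 1 (0.771), *Ppp4r4* highest in AAV-TuD liver 10 at 10.9 CPM with the next at 7.13 (0.751), and *Serpina10* highest in AAV-TuD liver 5 (0.694). *Sumo3* was lowest in AAV-TuD liver 3, at 99.3 CPM with the next at 117 (0.63).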

How the results depend on the processing

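The log2 fold changes of the members kept their direction, and those of *Ifi27* and *Ifi27l2a* their side of the threshold, in all alternatives run. With single livers left out they ranged from 0.65 to 0.83 for *Ifi27* (adjusted p up to 0.0126), from 1.06 to 1.39 for *Ifi27l2a* (adjusted p up to 0.0184) and from 3.22 to 3.49 for *Ifi27l2b*. With other scalings, filters and tests they were 0.74 to 0.999, 1.27 to 1.54 and 3.35 to 3.65. Library size alone shifted the median of all genes to 0.23. The adjusted p values are those of edgeR or, in 1 alternative, DESeq2.

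The lists were less stable. With single livers left out, 9 to 21 interferon-stimulated genes rose and 0 to 1 fell, 1 to 5 GTPases, 0 to 4 receptor and signalling genes and 2 to 5 sensing genes rose, and 0 to 1 sensing genes fell. GTPases that rose numbered 7 with library size alone and 5 with DESeq2. Receptor and signalling genes that rose numbered 4 with library size alone and 4 without the livers richest in *Mup*, and 1 with the size factors of DESeq2 in edgeR, without a filter or with filterByExpr. The fall of *Mavs* was lost (0 genes) with library size alone and without the livers richest in *Mup*. No neighbour was called in any setting. Spearman's rank correlation kept 2 of the 5 genes most like *Ifi27l2b* by either measure, and single omissions kept 2 to 5 and 0 to 4. The cause of these shifts was not tested.

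Among the other 56 named genes, 12 lost a call and 2 gained one in some setting, and 5 uncalled genes changed sign. With library size alone *Ppp4r4* was at 0.20 and *Serpina10* at 0.14. With single livers left out the values ranged from -0.0308 to 0.169 for *Slc40a1*, from -0.200 to 0.162 for *Otub2*, from -0.201 to 0.0179 for *Ppp4r4*, from -0.140 to 0.0109 for *Serpina10* and from -0.0042 to 0.0797 for *Mcee*. No paired analysis was possible because the groups share no replicate number. A planned motif search in promoters was not run.

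The 5 to 13 reads of *Ifi27l2b* in control livers limit the precision of its fold change.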
